A study of Medicago truncatula with 15 samples.

Results

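The shoot apex held a set of 150 loci whose transcript level was higher in the *Mtsoc1a* single mutant and lower in the *Mtsoc1* triple mutant, each relative to WT. They were 150 of 50021 measured loci. They were chosen by TPM (a level scaled for library size and transcript length), of which there was 1 value for each group, summed over the transcripts of a locus. A locus qualified when it reached at least 3 TPM in *Mtsoc1a* apices, when (*Mtsoc1a* apex + 1)/(WT apex + 1) was at least 1.5, and when (triple mutant apex + 1)/(WT apex + 1) was at most 0.67. Of the 228 loci past these thresholds, 9 were left out because (WT leaf + 1)/(WT apex + 1) was below 0.1. The remaining 219 were ranked by (*Mtsoc1a* apex + 1)/(triple mutant apex + 1), and the 150 highest were kept. Both apex comparisons were therefore used in the choice, and all apex values below are a description.

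The plants were *Medicago truncatula* of the R108 background, and 3 libraries were made for each of 5 groups. *Mtsoc1a* plants carry a *Tnt1* retrotransposon insertion in *MtSOC1a* and were sampled as shoot apices and as leaves at 15 days. The triple mutant was edited by CRISPR-Cas9, with Cas9 under the 35S promoter, in *MtSOC1a*, *MtSOC1b* and *MtSOC1c*, and apices of its non-flowering plants were sampled at 83 days. WT plants were sampled as shoot apices and as leaves at 15 days. The sample labels call the triple mutant line Mtsoc1-4, and the text of the study describes the line sequenced as *Mtsoc1-2*, so only 1 edited line stands behind these libraries. Every group had 3 weeks of cold at 4 °C and then grew in 16 h light at 22 °C, with harvest 4 h after dawn. An apex library pooled the apices, with the upper stem, of 3 plants and a leaf library pooled trifoliate leaves of 2 plants. The triple mutant came from older plants, so genotype and age cannot be told apart in any comparison with it. Its libraries are described separately from the other 12, and whether they were prepared in the same batch is not given in the sources used here. The p-values given below measure the spread between such pools.

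*SOC1* genes encode MADS-box transcription factors that promote the transition from vegetative growth to flowering, and in *Arabidopsis* SOC1 collects signals from photoperiod, vernalization, gibberellin and age at the shoot apex. Legumes carry A-group and B-group *SOC1* genes, of which *MtSOC1a* belongs to the A group and *MtSOC1b* and *MtSOC1c* to the B group. The shoot apex is made of the meristem and the youngest leaf primordia, whose cells divide and expand their walls. Several members carry the ontology terms of processes known in young shoots: abscisic acid signalling, in which receptors bind the hormone and inhibit protein phosphatases, xyloglucan metabolism, which remodels the hemicellulose of the primary wall, and peroxide breakdown by peroxidases. Others carry terms of defence, chitin breakdown and flavonoid synthesis. The terms come from lists that the study drew from genes changed in these same samples. Only 41 of the members have a term or description, so the terms are no independent evidence of a shared theme.

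Estimated counts came to between 30574854 and 38896407 per library in the 15-day-old groups and between 13224488 and 15891830 in the triple mutant. *MtSOC1a* (Medtr7g075870) stood at 0.514 to 1.01 CPM (counts scaled to TMM-normalised library size) in *Mtsoc1a* apices and 13.3 to 18.9 CPM in WT apices, and at 0 to 0.454 CPM in *Mtsoc1a* leaves and 8.69 to 9.47 CPM in WT leaves. Its transcript was at 20.7 to 23.9 CPM in the triple mutant, where the gene is edited and still transcribed, so its level does not check those labels. The other edited genes do not check them either. *MtSOC1c* was higher in the triple mutant, at 25.6 to 28.5 CPM, than in WT apices, at 3.61 to 6.19 CPM. *MtSOC1b* overlapped, at 1.81 to 2.01 CPM in the triple mutant and 1.51 to 3.36 CPM in WT apices. *MtLFY*, *MtTFL1c* and *HDL*, which mark the apex, had no count in any leaf library. *MtSOC1a* was also taken as an apex marker, but its level in WT leaves means that it does not mark the apex here. *HDL* was very low in apices, at 0 to 0.139 CPM in *Mtsoc1a* and 0.076 to 0.306 CPM in WT. Its lack of any count in the triple mutant therefore says little. The summed level of 5 floral genes was 4.83 to 5.49 CPM in *Mtsoc1a* apices, 1.73 to 2.69 CPM in the triple mutant and 2.34 to 6.32 CPM in WT apices. It was far higher in leaves, at 40.4 to 46.1 CPM in *Mtsoc1a* and 39.4 to 48.8 CPM in WT, so the sum does not mark floral tissue here. *MtAP1*, the floral meristem identity gene among them, had no count in *Mtsoc1a* apices and 0.05, 0 and 0 CPM in the triple mutant. In WT apices it had 2.54, 0.372 and 3.26 CPM, with replicate 2 the lowest. It had 3.08, 2.99 and 4.32 CPM in WT leaves, so it does not mark floral tissue here either. *AP3b* went the other way, at 4.66, 5.16 and 4.69 CPM in *Mtsoc1a* apices and 2.14, 1.71 and 2.56 CPM in WT apices. *PI*, *AP3a* and *AGa* stayed at or below 0.592 CPM in both. The part of floral tissue in the members' levels was not tested. Among the apex libraries, WT replicate 2 stood apart. Its counts differed from those of WT apex replicates 1 and 3 with a chi-square per degree of freedom of 67.9 and 72.5, against 24.9 between replicates 1 and 3. Leaf libraries were uneven as well, at 31.6 to 74.9 between *Mtsoc1a* leaf replicates and 31.7 to 44.1 between WT leaf replicates.

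The values that chose the members spread widely. The ratio of *Mtsoc1a* apex to WT apex, with 1 TPM added to each, had a median of 2.03 and ran between 1.504 and 25.4. The ratio of triple mutant apex to WT apex had a median of 0.366 and ran between 0.0153 and 0.656. The ratio of *Mtsoc1a* apex to triple mutant apex had a median of 5.63, with 3.83 at the last member and 221 at the first. At the median, the bound in the triple mutant was passed by a wider margin than the bound in *Mtsoc1a*. At the *Mtsoc1a* bound, Medtr4g007570 (1.504) and Medtr7g016800 (1.52) were the nearest inside, and Medtr2g061780 (1.4996) and Medtr3g098390 (1.4988) the nearest outside. At the triple mutant bound, Medtr8g010320 (0.656) and Medtr3g015270 (0.645) were the nearest inside, and Medtr4g072690 (0.674) and Medtr3g073800 (0.675) the nearest outside. At the end of the ranking, Medtr1g010250 (3.825) and Medtr4g059730 (3.832) were kept, and Medtr2g035170 (3.813) and Medtr8g014360 (3.806) were not.

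**Figure D1:**
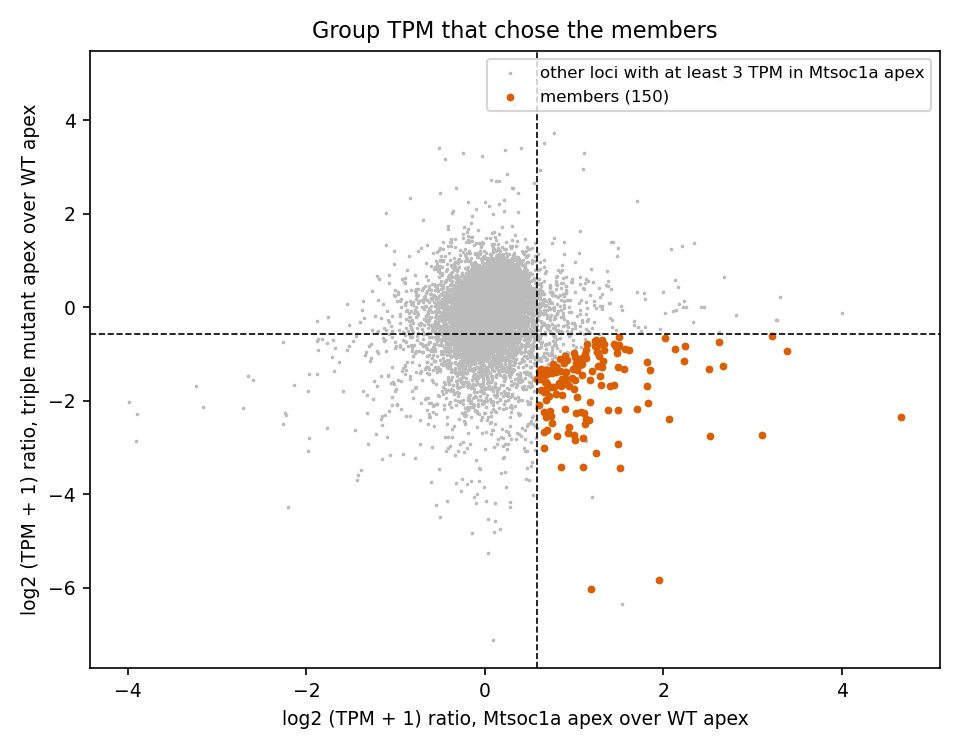
Log2 ratio of triple mutant apex to WT apex (vertical axis) plotted against that of *Mtsoc1a* apex to WT apex (horizontal axis), both in TPM with 1 added, one point for each locus at 3 TPM or more in *Mtsoc1a* apices. Dashed lines stand at ratios of 0.67 and 1.5, members fill the lower right corner, and the grey points in that corner include the 69 loci ranked below the 150 kept.

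Across the 5 groups, the median member stood at 12.0 TPM in *Mtsoc1a* apices, 0.689 TPM in the triple mutant, 4.55 TPM in WT apices, 2.89 TPM in *Mtsoc1a* leaves and 1.82 TPM in WT leaves. On TPM, *Mtsoc1a* apices were the highest of the 5 groups in 126 members. The triple mutant was the lowest in 93 members and below 1 TPM in 87. In bulk tissue of this kind, fewer cells of a type and less RNA per cell cannot be told apart. The rule removed only strongly apex-biased loci, and the members were mixed in tissue: by TPM, with 1 added, WT leaf was at least 2 times WT apex in 19, at most 0.5 times in 66 and between these in 65. The balance of leaf and apex depends on the scaling. Over 10679 loci at 3 TPM and 1 CPM or more in every group, TMM-normalised CPM set the log2 ratio to WT apex higher than TPM did by a median of 1.10 for *Mtsoc1a* leaf and 1.01 for WT leaf. On mean CPM, an alternative chosen after seeing the data, *Mtsoc1a* apices were the highest in 96 members and a leaf group in 54, the triple mutant was the lowest in 110, and the WT leaf to WT apex counts, with 1 CPM added, became 35, 25 and 90. The same median shift was -0.08 for *Mtsoc1a* apex and -0.12 for the triple mutant. Medtr3g467100, annotated with lipid binding, was the most leaf-biased, at 223 TPM in WT leaves and 4.85 TPM in WT apices. At the other end, 13 members had no count in any leaf library.

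**Figure D2:**
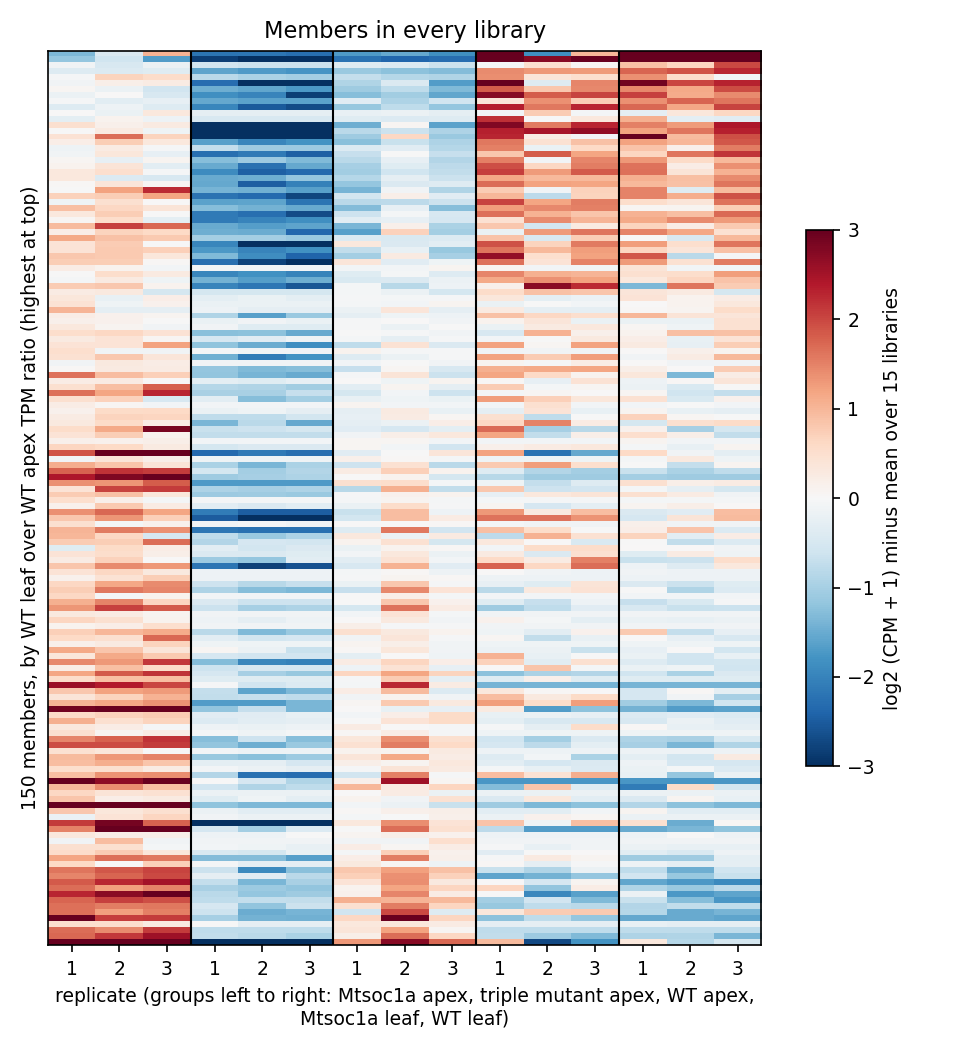
Level of each of the 150 members (rows) in the 15 libraries (columns, by group), as log2(CPM + 1) minus the mean of the row over all libraries. Rows run by the WT leaf to WT apex ratio, and the triple mutant columns are low across most rows while the leaf columns change along them.

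Many members were low or short transcripts. In *Mtsoc1a* apices, 65 members were below 10 TPM, 9 were at 100 TPM or more, and 43 averaged less than 1 CPM. The ratio of TPM to CPM, which is larger for shorter transcripts, had a median of 4.10 among members and 0.861 among all 16442 loci at 3 TPM or more in *Mtsoc1a* apices. It was at least 5 in 46.0% of members and in 13.3% of those loci. A bound set in TPM therefore admitted members on few reads. Medtr8g470140, Medtr6g037330 and Medtr3g462200 had all of their *Mtsoc1a* apex counts in 1 library, with 45, 67 and 24 counts. Medtr5g018540 had 81.1% and Medtr6g043640 75.9% of theirs in 1 library. In all, 17 members had more than 60% of their *Mtsoc1a* apex counts in a single library, and 9 had no count in at least 1 of the 3. When the same rule was applied to mean CPM, 152 loci met it, and 66 of these were among the members. Reads of near-identical copies can be divided between loci when counts are estimated, and no sequence was compared to find such copies among the members.

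Per library, all 3 *Mtsoc1a* apices lay above all 3 WT apices in 75 members, and the groups overlapped in the other 75. All 3 triple mutant libraries lay below all 3 WT apices in 123 members, and 27 overlapped. In 64 members both held, and the share of all loci in which both did was not computed. Only loci that passed the filter on low counts, among them 131 members, can be set beside all loci tested: *Mtsoc1a* lay above WT in 72 of these members and in 8.36% of all 22555 loci, and the triple mutant lay below WT in 114 of them and in 21.5% of all loci. In edgeR's test, with calls at 2-fold or more and an adjusted p up to 0.05, *Mtsoc1a* apices were higher in 8 of the 131 (0.155% of all loci tested) and the triple mutant was lower in 84 (6.4%). DESeq2 called 30 (0.723%) and 101 (7.46%). The rule used these contrasts, and nothing is read from the counts. The 8 were Medtr6g034905, Medtr3g058300, Medtr2g035210, Medtr8g010320, Medtr1g105860, Medtr1g107215, Medtr2g064470 and Medtr2g034720, and the triple mutant was also called lower in 6 of them, all but Medtr2g035210 and Medtr8g010320. Both comparisons share the WT apices, so a low or high WT value moves both.

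The overlap between *Mtsoc1a* and WT apices often included WT apex replicate 2, and how often it included the other WT libraries was not counted. WT apex replicate 2 was the highest of its group in 100 of the 150 members (66.7%), against 37.6% of loci tested. It was at least 2 times the mean of replicates 1 and 3 in 59 members, of which 54 were among the 131 tested, against 5.67% of loci tested. *Mtsoc1a* apices lay above WT replicates 1 and 3 in 116 members, and WT replicate 2 reached or passed the lowest *Mtsoc1a* library in 66. Fewer WT libraries are easier to clear, and neither the same counts without replicate 1 or 3 nor their shares of all loci were computed. Without WT apex replicate 2, *Mtsoc1a* was called higher in 38 of 140 members tested (0.625% of 23046 loci) and the triple mutant lower in 73 (4.88%). Both calls were made in 26, for which the share of all loci was not computed. The rule used these contrasts, and nothing is read from the counts of this paragraph. The part of WT apex replicate 2 in the members' WT level was not tested.

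The other groups had uneven libraries too. Summed over the members, the level was 2319, 2890 and 3099 CPM in *Mtsoc1a* apices, 333, 215 and 220.1 CPM in the triple mutant, and 981, 1818 and 959 CPM in WT apices. The sums of the 3 groups did not overlap, but the rule set their order, so nothing is read from it. Medtr4g029600 alone gave 411, 478 and 755 CPM of the *Mtsoc1a* apex sums and 121, 328 and 162 CPM of the WT apex sums. Triple mutant replicate 1 was the highest of its group in 108 members (72.0%), against 35.0% of loci tested. Leaves summed to 3571, 2235 and 2758 CPM in *Mtsoc1a* and 2261, 1679 and 2422 CPM in WT, and these groups overlapped. *Mtsoc1a* leaf replicate 1 was the highest of its group in 89 members (59.3%), against 41.5% of loci tested.

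**Figure D3:**
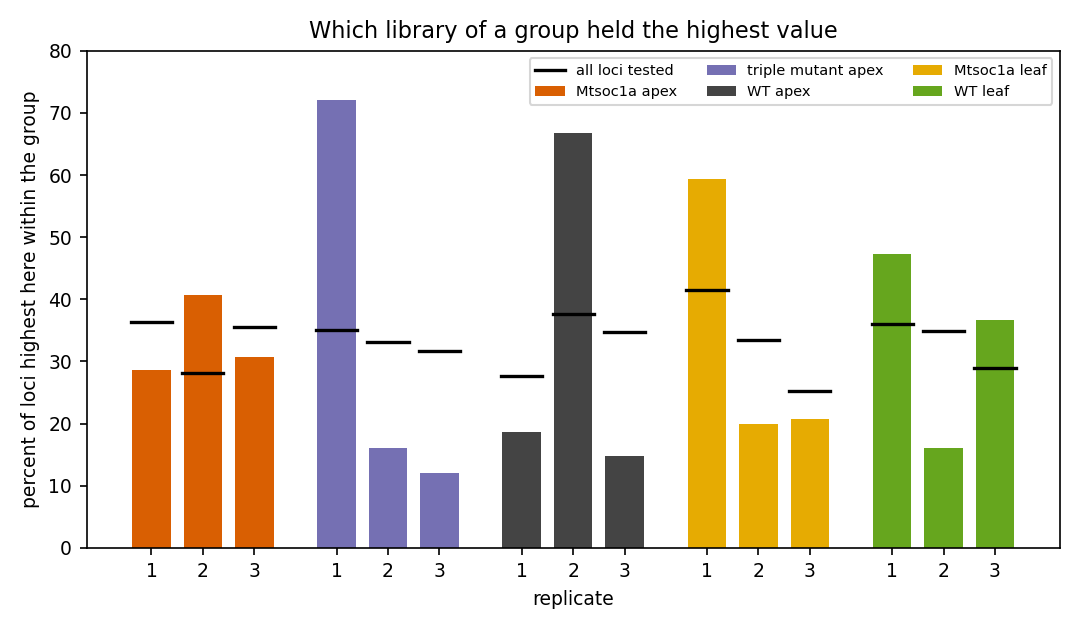
Percent of loci whose highest value within a group fell in a given replicate, by group from left to right *Mtsoc1a* apex, triple mutant apex, WT apex, *Mtsoc1a* leaf and WT leaf. Bars are the 150 members and black lines all loci tested. Triple mutant replicate 1 held 72.0% of the members' highest values and WT apex replicate 2 held 66.7%, against 35.0% and 37.6% of all loci.

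The first member by rank was Medtr3g016275, a locus with no description in the tables used here. It stood at 46.8, 81.4 and 37.3 CPM in *Mtsoc1a* apices, 0.402, 0.292 and 0.0495 CPM in the triple mutant, and 13.03, 28.8 and 14.0 CPM in WT apices, that is 55.2 ± 23.2, 0.248 ± 0.180 and 18.6 ± 8.81 CPM (SD, n = 3 each). None of the 3 apex groups overlapped. At 1230.2 TPM in *Mtsoc1a* apices it was one of the 2 most abundant members, the other being Medtr3g014615 at 1354 TPM. Medtr3g014615 had 56.9, 69.3 and 74.5 CPM in *Mtsoc1a* apices, 19.2, 13.05 and 15.3 CPM in the triple mutant, and 48.3, 42.1 and 36.8 CPM in WT apices, and its rank of 144 was near the end of the members.

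Medtr4g029600, the third by abundance, had 411, 478 and 755 CPM in *Mtsoc1a* apices, 3.62, 2.11 and 1.93 CPM in the triple mutant, and 121, 328 and 162 CPM in WT apices. Its leaf libraries were uneven, with 93.3, 6.59 and 13.2 CPM in *Mtsoc1a* leaves and 60.4, 26.4 and 33.3 CPM in WT leaves. Its neighbours by identifier, Medtr4g029550 and Medtr4g029620, were also members, so that 3 of the 4 loci of this stretch were. Medtr4g029550 had 77.4, 104 and 149.6 CPM in *Mtsoc1a* apices, 8.14, 6.14 and 6.68 CPM in the triple mutant, and 16.5, 43.4 and 18.1 CPM in WT apices. Medtr4g029620 had 10.3, 13.7 and 40.1 CPM in *Mtsoc1a* apices, 0, 0.0585 and 0.0989 CPM in the triple mutant, and 1.13, 1.25 and 0.466 CPM in WT apices. All 3 loci had *Mtsoc1a* above WT and the triple mutant below WT in every library, and Medtr4g029620 was nearly absent from leaves, with 4 counts in *Mtsoc1a* and 1 in WT.

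**Figure D4:**
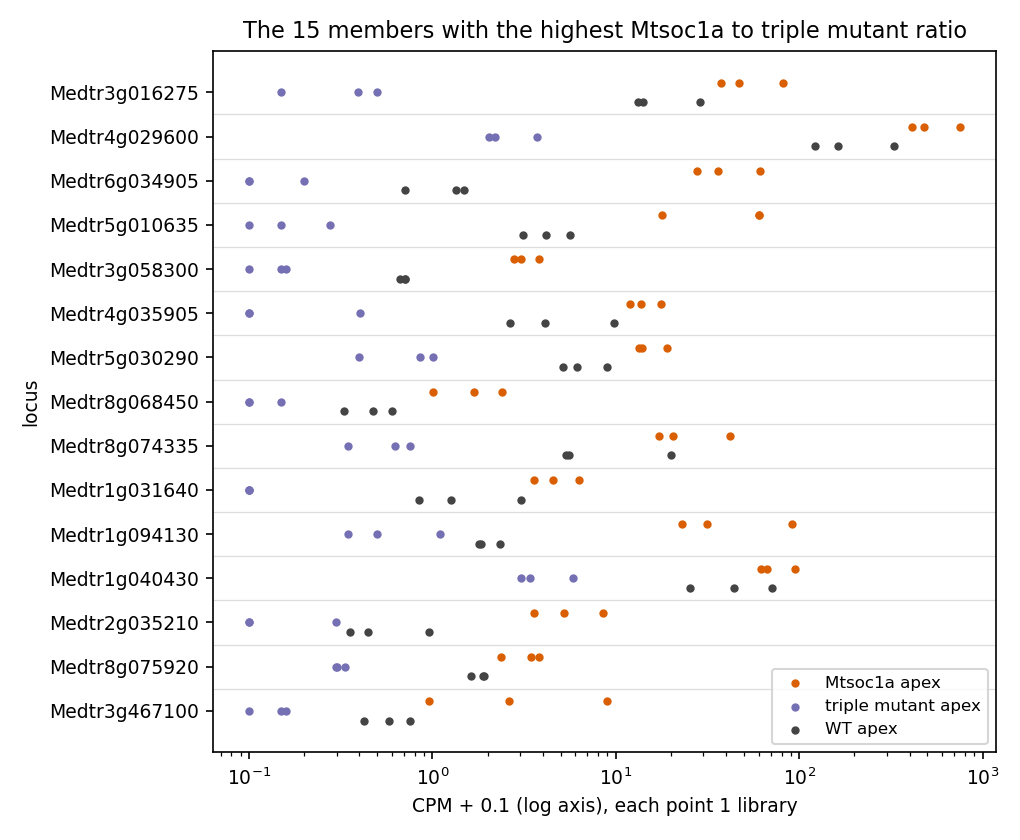
Level of the 15 members with the highest *Mtsoc1a* to triple mutant ratio (rows), one point for each apex library, on a log axis in CPM with 0.1 added, coloured by group and set in each row from top to bottom as *Mtsoc1a*, triple mutant and WT. Medtr3g016275 lies at 37.3 to 81.4 CPM in *Mtsoc1a*, at most 0.402 CPM in the triple mutant and 13.03 to 28.8 CPM in WT.

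Medtr6g034905, which carries the term cell wall organization, was the member with the widest gap between *Mtsoc1a* and WT. It had 27.5, 36.1 and 60.7 CPM in *Mtsoc1a* apices, 0.1004, 0 and 0 CPM in the triple mutant, and 1.40, 1.25 and 0.606 CPM in WT apices. Leaves held almost none of it, with 7 counts in all *Mtsoc1a* leaf libraries and 12 in all WT leaf libraries. Medtr1g094130, which has no description here, showed a similar gap in *Mtsoc1a*, at 22.7, 31.2 and 91.5 CPM, against 0.402, 0.995 and 0.247 CPM in the triple mutant and 2.24, 1.75 and 1.70 CPM in WT apices. Its *Mtsoc1a* libraries were uneven, with replicate 3 higher than the other two together.

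Further down the 15 highest ranks, Medtr3g058300 was even between libraries, with 3.69, 2.94 and 2.67 CPM in *Mtsoc1a* apices, 0.0502, 0.0585 and 0 CPM in the triple mutant, and 0.612, 0.569 and 0.606 CPM in WT apices. Medtr4g035905 had 11.8 to 17.5 CPM in *Mtsoc1a* apices, 0 to 0.301 CPM in the triple mutant and 2.54 to 9.69 CPM in WT apices. Medtr5g030290 had 13.3 to 18.9 CPM in *Mtsoc1a* apices, 0.297 to 0.904 CPM in the triple mutant and 5.03 to 8.88 CPM in WT apices. These 3 loci have no description here, and in none of them did the apex groups overlap. Medtr8g068450, a leguminosin, one of a family of secreted peptides of legumes, had 0.906, 2.29 and 1.58 CPM in *Mtsoc1a* apices, 0.0502, 0 and 0 CPM in the triple mutant, and 0.229, 0.503 and 0.373 CPM in WT apices. Of the 15 highest ranks, Medtr1g040430 and Medtr8g074335, given with the chitin loci, had *Mtsoc1a* apices that overlapped WT. The *Mtsoc1a* apices of Medtr1g040430, at 66.3, 94.96 and 61.8 CPM, overlapped the WT apices, at 25.1, 71.1 and 43.9 CPM, while the triple mutant lay far below both at 5.78, 2.93 and 3.31 CPM.

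Of the 10 most abundant members, Medtr2g437530 and Medtr7g108735 had their highest level in leaves by TPM as well as by CPM. Medtr2g437530 had 77.8, 94.5 and 71.4 CPM in *Mtsoc1a* apices, 8.54, 4.74 and 5.74 CPM in the triple mutant, and 43.8, 49.6 and 40.7 CPM in WT apices, with 399, 437 and 497 CPM in *Mtsoc1a* leaves and 182, 239 and 399.8 CPM in WT leaves. Medtr7g108735 had 8.52, 10.7 and 6.15 CPM in *Mtsoc1a* apices, 2.11, 0.878 and 2.08 CPM in the triple mutant, and 3.46, 5.95 and 4.15 CPM in WT apices, with 12.6 to 33.0 CPM in *Mtsoc1a* leaves and 9.33 to 26.6 CPM in WT leaves. The apex groups of both were apart, and the tables used here describe neither. Medtr3g467100, the leaf-biased locus named above, had 0.863, 2.52 and 8.80 CPM in *Mtsoc1a* apices, 0.0502, 0.0585 and 0 CPM in the triple mutant, and 0.478, 0.656 and 0.326 CPM in WT apices. Its leaf libraries spread from 0.332 to 44.1 CPM in *Mtsoc1a* and from 36.9 to 60.9 CPM in WT.

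Medtr8g010320, annotated with nodulation, had 0.971, 2.24 and 1.97 CPM in *Mtsoc1a* apices, 0.151, 0.0585 and 0 CPM in the triple mutant, and 0.229, 0.131 and 0.0932 CPM in WT apices, so that the triple mutant and WT overlapped. Medtr1g105860 had 7.83, 7.55 and 11.0 CPM in *Mtsoc1a* apices, 0.0502, 0.0585 and 0.0495 CPM in the triple mutant, and 3.80, 3.94 and 2.26 CPM in WT apices. Medtr1g107215 had 25.2 to 37.2 CPM in *Mtsoc1a* apices, 3.92 to 6.28 CPM in the triple mutant and 12.0 to 16.8 CPM in WT apices. Both of these, without a description here, had 3 apex groups that were apart, as had Medtr2g064470, with 3.99 to 6.19 CPM in *Mtsoc1a* apices, 0.117 to 0.402 CPM in the triple mutant and 0.822 to 1.73 CPM in WT apices.

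Defence terms were carried by several of the highest ranks, among them Medtr8g074335, given with the chitin loci, and Medtr2g035210, given with the abscisic acid loci. Medtr5g010635 had 17.8, 60.1 and 60.5 CPM in *Mtsoc1a* apices, 0, 0.175 and 0.0495 CPM in the triple mutant, and 3.00, 4.07 and 5.52 CPM in WT apices. Medtr1g031640, annotated with defense response, had 4.42, 3.48 and 6.18 CPM in *Mtsoc1a* apices and 1.17, 2.93 and 0.746 CPM in WT apices, and no count in the triple mutant or in leaves. With 44547554 counts in the 3 triple mutant libraries together, a count of 0 allows a level of up to 0.0673 CPM there, from a limit of 3 counts that covers counting error only. Of the 21 members with no count in the triple mutant, this one was the highest ranked. Medtr1g080800, also under defense response, had 1.92, 3.39 and 13.3 CPM in *Mtsoc1a* apices, 0.251, 0.292 and 0.396 CPM in the triple mutant, and 0.573, 0.415 and 0.629 CPM in WT apices, so 1 *Mtsoc1a* library carried most of it.

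Chitin breakdown is the work of chitinases, which act on fungal cell walls. Medtr8g074335 had 17.2, 41.8 and 20.4 CPM in *Mtsoc1a* apices, 0.653, 0.526 and 0.247 CPM in the triple mutant, and 5.43, 19.8 and 5.22 CPM in WT apices. Medtr3g118390 had 8.05, 33.6 and 27.3 CPM in *Mtsoc1a* apices, 1.26, 0.585 and 1.43 CPM in the triple mutant, and 2.16, 9.32 and 3.45 CPM in WT apices. In both, WT replicate 2 was the highest WT library and lay above the lowest *Mtsoc1a* library. The wider list of 6 chitin catabolism loci, which the study drew from genes lower in the triple mutant of these same samples and is thus no independent evidence of direction, had 5 called lower in the triple mutant and 0 called in *Mtsoc1a* apices. In leaves 3 of the 6 were tested and 0 were called. The list of 13 defense response loci, drawn from genes higher in *Mtsoc1a*, had 2 of 12 tested called higher in *Mtsoc1a* apices, 3 of 12 called lower in the triple mutant, and 0 of 7 called in leaves.

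Abscisic acid signalling was represented by 4 members whose terms include negative regulation of phosphatase activity, the step at which receptors of the hormone act. Medtr2g035210 and Medtr2g035220 also carry the terms defense response and response to biotic stimulus, which Medtr5g030500 and Medtr5g083270 do not. The terms alone do not say which process these loci serve. Medtr2g035210 had 5.09, 3.46 and 8.43 CPM in *Mtsoc1a* apices, 0, 0 and 0.198 CPM in the triple mutant, and 0.344, 0.853 and 0.256 CPM in WT apices. Its neighbour by identifier, Medtr2g035220, had 12.0, 16.0 and 21.9 CPM in *Mtsoc1a* apices, 1.36, 1.23 and 1.04 CPM in the triple mutant, and 3.42, 11.5 and 5.01 CPM in WT apices. In both of these the 3 apex groups were apart. In the other members the gap to WT was smaller. Medtr5g030500 had 16.97 to 19.4 CPM in *Mtsoc1a* apices, 3.66 to 4.68 CPM in the triple mutant and 11.4 to 12.2 CPM in WT apices, with no overlap. Medtr5g083270 had 6.11 to 9.58 CPM in *Mtsoc1a* apices and 4.17 to 7.35 CPM in WT apices, which overlapped, and 0.544 to 0.936 CPM in the triple mutant.

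Medtr8g072260, under abscisic acid metabolism, had 12.7, 12.7 and 14.2 CPM in *Mtsoc1a* apices, 0.552, 0.292 and 0.643 CPM in the triple mutant, and 3.86, 9.25 and 4.38 CPM in WT apices. The groups were apart, and the *Mtsoc1a* libraries were close to each other. Of the 12 loci listed under abscisic acid signalling, 10 were called lower in the triple mutant, 1 was called higher in *Mtsoc1a* apices, and 0 were called in leaves. All 6 loci listed under abscisic acid metabolism were called lower in the triple mutant, 0 were called in *Mtsoc1a* apices and 0 in leaves. The leaf log2 fold change was above 0 in all 6, against 50.9% of all loci tested. Its median was 0.71, against 0.005 over all loci. Leaf medians of the other lists went both ways, from -0.81 for chitin catabolism (0 of 3 tested above 0) to 0.94 for defense response (5 of 7). Both abscisic acid lists were drawn by the study from genes lower in the triple mutant.

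Peroxidases break down hydrogen peroxide and also cross-link wall polymers. Medtr2g008710 had 18.0, 14.1 and 15.6 CPM in *Mtsoc1a* apices, 0.452, 0.409 and 0.445 CPM in the triple mutant, and 3.96, 13.2 and 3.45 CPM in WT apices. Its leaf level, 39.3 to 92.4 CPM in *Mtsoc1a* and 32.0 to 72.2 CPM in WT, was higher than its apex level in each genotype. Medtr1g066710 was the most even of the 3 peroxide members, with 15.1, 18.9 and 17.2 CPM in *Mtsoc1a* apices, 1.81, 1.93 and 1.88 CPM in the triple mutant, and 9.02, 8.64 and 8.44 CPM in WT apices. Medtr2g084010 had 15.8 to 23.1 CPM in *Mtsoc1a* apices, 2.52 to 4.07 CPM in the triple mutant and 8.95 to 14.8 CPM in WT apices. The groups were apart in all 3 loci. All 17 loci of the list were called lower in the triple mutant, from which the study drew it, while 0 were called in *Mtsoc1a* apices and 0 of 15 tested in leaves.

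Xyloglucan metabolism gave 3 members, for which the *Mtsoc1a* gap was small. Medtr6g033055 had 72.4, 93.4 and 54.6 CPM in *Mtsoc1a* apices, 13.2, 5.50 and 5.10 CPM in the triple mutant, and 68.4, 40.3 and 43.5 CPM in WT apices. Its near neighbour Medtr6g033085 had 22.6, 22.6 and 13.5 CPM in *Mtsoc1a* apices, 1.96, 1.05 and 0.495 CPM in the triple mutant, and 17.3, 10.1 and 12.0 CPM in WT apices. In both, *Mtsoc1a* and WT apices overlapped and the triple mutant lay below. Medtr8g064180 had 5.85 to 9.44 CPM in *Mtsoc1a* apices, 0.643 to 1.52 CPM in the triple mutant and 3.27 to 3.85 CPM in WT apices, without overlap. The list of 13 loci had 13 called lower in the triple mutant, its source, 0 called in *Mtsoc1a* apices and 0 of 10 tested called in leaves.

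Flavonoid synthesis supplies pigments and the flavonoid signals of legume roots. Medtr7g016720 had 4.23, 7.76 and 6.48 CPM in *Mtsoc1a* apices, 0.352, 0.0585 and 0.0989 CPM in the triple mutant, and 0.459, 5.47 and 1.49 CPM in WT apices. Its neighbour Medtr7g016800 had 3.30, 6.70 and 6.08 CPM in *Mtsoc1a* apices, 0.352, 0.0585 and 0 CPM in the triple mutant, and 0.573, 5.95 and 2.42 CPM in WT apices. Medtr1g097910 had 8.97, 12.8 and 12.0 CPM in *Mtsoc1a* apices, 2.11, 2.11 and 0.693 CPM in the triple mutant, and 1.82, 13.1 and 3.29 CPM in WT apices. In all 3, WT replicate 2 was the highest WT library and overlapped *Mtsoc1a*, and in Medtr1g097910 the triple mutant overlapped WT as well. Of the 9 listed loci, 6 were called lower in the triple mutant, from which the list came, 0 in *Mtsoc1a* apices and 0 of 5 tested in leaves.

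Metal ion transport was the term of 2 members. Medtr1g079810, which also carries defence terms, had 5.72, 7.24 and 9.82 CPM in *Mtsoc1a* apices, 0, 0.585 and 0 CPM in the triple mutant, and 2.06, 5.38 and 2.38 CPM in WT apices. Medtr5g025150 had 2.11, 1.57 and 1.69 CPM in *Mtsoc1a* apices, 0.1004, 0.0585 and 0.0495 CPM in the triple mutant, and 1.53, 0.700 and 1.14 CPM in WT apices. Both had groups that were apart. The list of 23 had 22 called lower in the triple mutant, its source, 0 in *Mtsoc1a* apices and 0 of 21 tested in leaves.

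A term of carbohydrate metabolism marked 3 members of a run of 6 whose identifiers lie between Medtr2g034295 and Medtr2g035220, a stretch of 61 loci. Medtr2g034720 was the most abundant of these, with 83.8, 109 and 104 CPM in *Mtsoc1a* apices, 18.3, 15.2 and 17.2 CPM in the triple mutant, and 37.1, 54.2 and 28.2 CPM in WT apices. Medtr2g034470 had 5.05, 12.2 and 9.50 CPM in *Mtsoc1a* apices, 0.1004, 0 and 0.0495 CPM in the triple mutant, and 0.229, 2.49 and 0.629 CPM in WT apices. Medtr2g034440 had 4.67 to 11.0 CPM in *Mtsoc1a* apices, 0.445 to 1.56 CPM in the triple mutant and 2.49 to 2.90 CPM in WT apices, and was a leaf transcript, with 118 to 265 CPM in *Mtsoc1a* leaves and 166 to 236 CPM in WT leaves. The apex groups of all 3 were apart, while their leaf-to-apex balance differed. The run also holds both abscisic acid members described above and Medtr2g034295, which stayed at or below 0.604 CPM in every apex library. The list of 15 loci under carbohydrate metabolism, drawn from genes higher in *Mtsoc1a*, had 5 called higher in *Mtsoc1a* apices, 4 called lower in the triple mutant and 0 of 7 tested called in leaves.

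Another run of 6 lay between Medtr2g022370 and Medtr2g022900, among 38 loci, and 3 of its members are annotated with proteolysis. Medtr2g022370 had 27.3, 11.6 and 11.7 CPM in *Mtsoc1a* apices, 0.502, 0.117 and 0.0989 CPM in the triple mutant, and 3.63, 22.5 and 3.68 CPM in WT apices. Medtr2g022430 had 71.9, 53.5 and 64.8 CPM in *Mtsoc1a* apices, 14.1, 7.25 and 7.77 CPM in the triple mutant, and 14.3, 91.1 and 16.8 CPM in WT apices. Medtr2g022490 had 8.56, 12.99 and 11.3 CPM in *Mtsoc1a* apices, 0.0502, 0 and 0 CPM in the triple mutant, and 2.62, 13.2 and 2.21 CPM in WT apices. In each of the 3, WT replicate 2 was higher than the other two WT libraries together and lay above at least 1 *Mtsoc1a* library, and the triple mutant was below every WT library. The others of the run had WT libraries closer together. Medtr2g022610 had 12.8 to 15.1 CPM in *Mtsoc1a* apices, 4.33 to 5.02 CPM in the triple mutant and 7.28 to 13.1 CPM in WT apices. Medtr2g022710, under carbohydrate metabolism, had 6.45 to 13.8 CPM in *Mtsoc1a* apices, 0.495 to 1.31 CPM in the triple mutant and 4.17 to 6.50 CPM in WT apices. Medtr2g022900, annotated with protein folding, had 5.13 to 7.87 CPM in *Mtsoc1a* apices, 0.544 to 0.761 CPM in the triple mutant and 3.75 to 4.92 CPM in WT apices.

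Of the 4 other runs of at least 3 members, that of Medtr4g029600 is described above. Medtr1g075030 and Medtr1g075095 had no count in any leaf library. Medtr1g075095 had 34.2, 20.3 and 25.1 CPM in *Mtsoc1a* apices, 2.31, 1.35 and 0.791 CPM in the triple mutant, and 2.69, 18.5 and 2.49 CPM in WT apices. Medtr1g075030 had 9.57 to 14.5 CPM in *Mtsoc1a* apices, 0.761 to 1.56 CPM in the triple mutant and 1.55 to 11.6 CPM in WT apices. Their WT libraries split as in the proteolysis loci, with replicate 2 high. Medtr1g074370, the third of that run, had 1.53 to 3.57 CPM in *Mtsoc1a* apices, 0.0495 to 0.201 CPM in the triple mutant and 0.612 to 1.84 CPM in WT apices. In the run of 4 that holds Medtr3g016275 and Medtr3g014615, Medtr3g016080 and Medtr3g015270 were low, with at most 0.733 and 0.304 CPM in any apex library. The last run, of 3, holds Medtr8g075920, given below, and Medtr8g076040 and Medtr8g076990, which had at most 0.934 and 0.280 CPM in any apex library.

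The flowering lists of the study, partly chosen on these samples, hold 3 of the members. Medtr8g075920, listed as a GRP gene in the gibberellin category, had 3.34, 3.71 and 2.25 CPM in *Mtsoc1a* apices, 0.201, 0.234 and 0.198 CPM in the triple mutant, and 1.53, 1.82 and 1.79 CPM in WT apices, with no overlap. Medtr8g020200, listed as a homolog of *ELF4*, a component of the evening complex of the *Arabidopsis* clock, had 7.14, 3.90 and 3.65 CPM in *Mtsoc1a* apices and 2.60, 4.40 and 3.15 CPM in WT apices, which overlapped, and 1.31, 1.35 and 1.93 CPM in the triple mutant. *MtTEM2* (Medtr5g053920), a homolog of *TEM2*, a repressor of *FT* in *Arabidopsis*, had 20.5, 26.3 and 21.1 CPM in *Mtsoc1a* apices, 6.23, 2.81 and 4.205 CPM in the triple mutant, and 8.43, 14.6 and 15.1 CPM in WT apices. Its 3 apex groups were apart. In leaves it had 66.6, 47.6 and 47.2 CPM in *Mtsoc1a* and 40.2, 38.1 and 63.3 CPM in WT, which overlapped.

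Leaves were the one place where the effect of *Mtsoc1a* on the members could be tested apart from the contrasts of the rule, which used the WT leaf level only to leave out 9 loci. Of the 150 members, 96 passed the filter on low counts in leaves. edgeR called 2 of the 96 higher in *Mtsoc1a* leaves (0.193% of all 19706 loci tested) and 0 lower (0.0457%). At an unadjusted p under 0.05, 18 were higher (5.64% of all loci) and 5 were lower (5.11%). DESeq2 called 8 higher (0.68%) and 0 lower (0.482%). The *Mtsoc1a* libraries lay above all WT libraries in 18 of the 96 (7.51% of all loci) and below them in 5 (9.06%). The log2 fold change was above 0 in 63 of the 96 (65.6%), against 50.9% of all loci, with a median of 0.34 and quartiles of -0.15 and 0.88, against a median of 0.005 over all loci.

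Same-numbered leaf libraries deviated together, weakly for replicate 3, although no sample label pairs them. The fit with the replicate number as a block called 10 members higher (0.781% of all loci) and 0 lower (0.523%). Over all 150 members, the *Mtsoc1a* leaf libraries lay above the WT leaf libraries in 20, below them in 7, and overlapped them in 123. Other loci of the apex thresholds are given for comparison. The 69 loci that met the rule below the 150 kept had a median leaf log2 fold change of 0.18 over 53 tested, with 0 called without the block and 3 higher with it. The 278 loci past the *Mtsoc1a* threshold only had a median of 0.20 over 170 tested, with 0 called without the block and 10 higher with it, as many as among the 96 members. The 1704 loci past the triple mutant threshold only had a median of -0.02 over 1499 tested, with 14 called higher and 0 lower without the block, and 40 higher and 11 lower with it. Without the block, the leaf log2 fold change was above 0 in 60.4%, 67.6% and 46.9% of the loci tested in these sets, in the order given. The members' 65.6% was thus not particular to them, since the loci past the *Mtsoc1a* threshold only had a similar share. These differences between sets of loci are a description and were not tested. Leaf and apex libraries of a genotype came from plants of the same age and line, and whether they came from the same plants is not given in the sources used here.

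**Figure D5:**
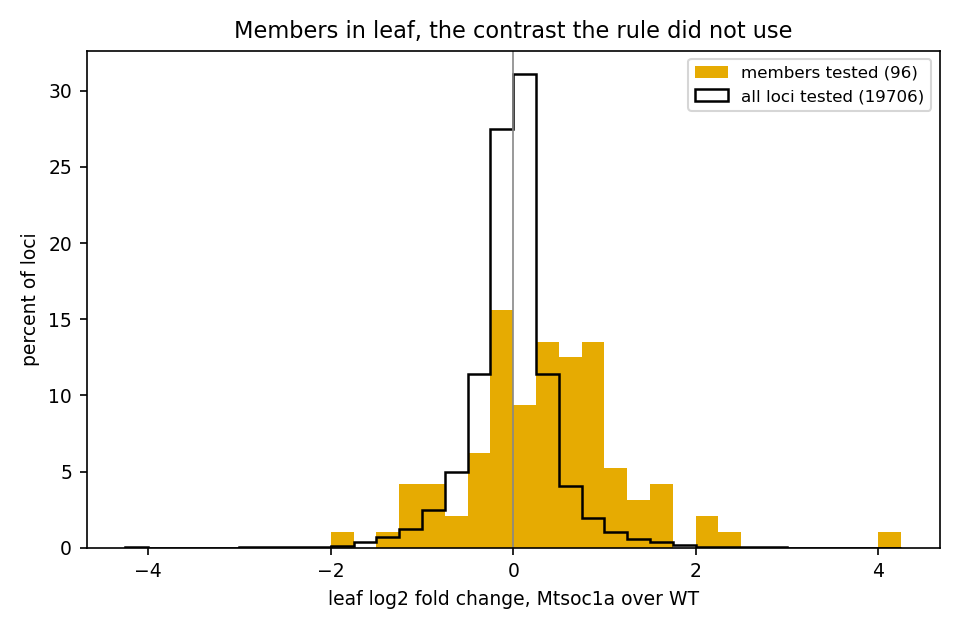
Histogram of the log2 fold change of *Mtsoc1a* leaf over WT leaf from the edgeR fit, in percent of loci, for the 96 members tested (filled) and all 19706 loci tested (outline). The members have a median of 0.34 and all loci one of 0.005, and the bar farthest to the right is Medtr4g026030 at 4.10.

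The first of the 2 called in leaves was Medtr2g022430, of the proteolysis run. It had 28.6, 38.6 and 39.3 CPM in *Mtsoc1a* leaves and 11.7, 7.14 and 7.83 CPM in WT leaves, that is 35.5 ± 5.98 and 8.90 ± 2.48 CPM (SD, n = 3 each). The groups did not overlap, and the log2 fold change was 2.02 (SE 0.22, edgeR adjusted p 0.0109). Over the alternatives its adjusted p ran between 1.39e-13 and 0.189, and the call was lost without *Mtsoc1a* leaf replicate 3, without WT leaf replicate 3, with transcripts as deposited, and in one fit over the 12 libraries of 15-day-old plants.

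Medtr2g097463, with no description here, had 19.95, 11.9 and 19.8 CPM in *Mtsoc1a* leaves and 3.28, 2.47 and 4.85 CPM in WT leaves, that is 17.2 ± 4.61 and 3.54 ± 1.21 CPM (SD, n = 3 each). The log2 fold change was 2.30 (SE 0.31, edgeR adjusted p 0.0244), with adjusted p between 8.34e-10 and 0.158 over the alternatives. This call was lost without *Mtsoc1a* leaf replicate 3, without each of the 3 WT leaf libraries and with transcripts as deposited. Its apex values were 16.7, 18.5 and 21.3 CPM in *Mtsoc1a*, 1.76, 1.76 and 2.42 CPM in the triple mutant, and 8.12, 14.1 and 9.74 CPM in WT.

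The block added 8 members, with log2 fold changes of 1.04 to 4.18 and edgeR adjusted p values of 1.91e-05 to 0.0229, against 0.0804 to 0.751 without it. Medtr2g090765, under cell wall biogenesis, shows the pattern, with 11.0, 69.9 and 49.9 CPM in *Mtsoc1a* leaves and 3.28, 32.1 and 17.3 CPM in WT leaves, so that each *Mtsoc1a* library was above the WT library of its number although the groups overlapped. Medtr6g023340 was of the same kind, with 224, 50.3 and 82.9 CPM in *Mtsoc1a* leaves and 129, 19.5 and 34.1 CPM in WT leaves. Medtr2g102670 had 209.8, 94.0 and 197 CPM in *Mtsoc1a* leaves and 54.4, 46.6 and 76.0 CPM in WT leaves, and Medtr8g007035 had 9.50, 6.45 and 10.8 CPM in *Mtsoc1a* leaves and 3.80, 1.49 and 3.84 CPM in WT leaves. Medtr7g089860 had 6.54, 7.49 and 8.03 CPM in *Mtsoc1a* leaves and 2.29, 2.33 and 4.27 CPM in WT leaves. In these 3, *Mtsoc1a* lay above WT in every leaf library. Medtr4g099180 had 11.4, 14.2 and 12.4 CPM in *Mtsoc1a* leaves and 5.06, 5.04 and 9.41 CPM in WT leaves, which were apart, and Medtr4g116530 had 2.36, 1.66 and 5.30 CPM in *Mtsoc1a* leaves and 0.395, 0.420 and 2.21 CPM in WT leaves, which overlapped.

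The highest leaf fold change belonged to Medtr4g026030, the last of these 8, with 2.82, 1.66 and 3.02 CPM in *Mtsoc1a* leaves and 0.277, 0.140 and 0 CPM in WT leaves. Its log2 fold change was 4.10 (SE 0.78, edgeR adjusted p 0.0804), on 10 counts in all WT leaf libraries. In apices it had 12.6, 17.03 and 20.5 CPM in *Mtsoc1a*, 1.31, 0.468 and 0.940 CPM in the triple mutant, and 3.99, 8.97 and 3.64 CPM in WT. The lowest leaf fold change was that of Medtr1g093960, with 0.4999, 1.18 and 0.621 CPM in *Mtsoc1a* leaves and 1.86, 1.45 and 5.14 CPM in WT leaves (log2 fold change -1.85, SE 0.62, edgeR adjusted p 0.311). Its libraries did not overlap either, in the direction opposite to its apex values. Among the members with the widest *Mtsoc1a* gap in the apex, Medtr6g034905, Medtr1g094130 and Medtr4g029620 had too few leaf counts to be tested.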

How the data were processed

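Transcripts were quantified in 15 libraries from 5 groups of 3. The authors prepared strand-specific polyA libraries and used fastp for trimming, Salmon 0.8.2 with the Mt4.0v2 transcripts for quantification, tximport for import and DESeq2 1.24.0 for testing. The deposited estimated counts, made by the authors from the trimmed reads and not normalised, cover 57124 transcripts of 50021 loci in all 15 libraries. The deposited TPM values, also by the authors, hold 1 column for each group, and how the libraries were combined in it is not given in the sources used here, so TPM carried no error and was not tested. All values are of loci of the Mt4.0v2 annotation, and coordinates are not used here.

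TPM and counts were summed by locus, and members were taken by the rule given with the results. Of the 150, 136 have 1 transcript and 14 have several. Rounded counts with TMM library sizes were tested with edgeR 4.0.16 in R 4.3.3 (quasi-likelihood F-test, robust, filterByExpr with a minimum count of 10). The 6 leaf libraries formed one fit and the 9 apex libraries another. A call needed a Benjamini-Hochberg adjusted p, over all loci tested, of at most 0.05 and a 2-fold change or more. CPM values use TMM library sizes over the 15 libraries. Alternatives were DESeq2 1.42.0, its size factors, no filter, no fold threshold, transcripts as deposited, the replicate block, each library left out in turn, another set of libraries, and other pseudocounts, bounds and units in the rule.

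No sample label pairs the leaf libraries, so the main leaf fit had no block and the replicate block was an alternative. Deviations from group means correlated at 0.149 (replicate 3) to 0.536 between *Mtsoc1a* and WT leaf libraries of the same number. Between different numbers they correlated at -0.469 to 0.0615. Deviations within a group sum to 0, which pushes the latter below 0 when the former are above it. No 2 libraries of a group agreed within sampling noise (chi-square per degree of freedom 5.71 to 74.9). On simulated counts with 100 loci changed 2-fold and 100 changed 4-fold, 39 and 97 were recovered in the leaf comparison over 19706 loci, with 12 unchanged loci called. The changed loci were drawn only from those above a lower bound on the WT level, so recovery among the lowest loci was not measured. The simulated libraries also had no deviations shared by replicate number, unlike the real leaf libraries.

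The members and lists were chosen with earlier results of these data known. Members were named in the text when they were among the 15 highest by rank or the 10 highest by *Mtsoc1a* apex TPM, stood in a list of the study, were called or most extreme in leaves, lay in a run of at least 3 members with identifiers within 1000 of the next, lay nearest a threshold, or had most counts in 1 library. Members of the tabled ontology terms and the 8 called in *Mtsoc1a* apices were named in addition, after their values were seen. Descriptions and ontology terms came from the supplementary tables of the study and cover 41 members, and 0 members were matched in the RefSeq gene table, so no sequence is shown. The authors' own fold changes and p-values were not used.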

Additional observations from a re-analysis of the deposited data

Results flagged for a closer look

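In 4 members every *Mtsoc1a* leaf library was below every WT leaf library while every *Mtsoc1a* apex library was above every WT apex library. The leaf part alone held in 5 of the 96 members tested in leaves (5.21%), less than the 9.06% of all loci tested. The share of all loci in which both held was not computed, so the 4 are given as a description. Medtr5g030290 had 16.5, 4.12 and 12.99 CPM in *Mtsoc1a* leaves and 23.9, 17.8 and 32.3 CPM in WT leaves (log2 fold change -1.13, SE 0.47, edgeR adjusted p 0.451), against an apex log2 fold change of 1.21. Medtr1g105860 had 2.14, 1.09 and 1.61 CPM in *Mtsoc1a* leaves and 3.76, 2.85 and 3.03 CPM in WT leaves (-0.97, SE 0.36, adjusted p 0.357), against 1.40 in the apex. Medtr2g084010, a peroxide member, had 1.05, 1.28 and 1.74 CPM in *Mtsoc1a* leaves and 3.08, 1.77 and 2.88 CPM in WT leaves (-0.90, SE 0.40, adjusted p 0.469), against 0.83 in the apex. Medtr3g479620, singled out after its values were seen, had 11.7, 10.7 and 10.5 CPM in *Mtsoc1a* leaves and 15.02, 16.7 and 21.8 CPM in WT leaves (-0.68, SE 0.18, adjusted p 0.203), and 2.63, 2.59 and 2.72 CPM in *Mtsoc1a* apices and 1.22, 1.05 and 0.956 CPM in WT apices. No leaf value of the 4 passed the test. The difference between leaf and apex was not tested, since the apex direction was fixed by the rule.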

How the results depend on the processing

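Leaf fold changes were recomputed for 15 members, the 11 named from the leaf test and the 4 flagged above, and each kept its direction under the 12 alternatives run for it. These members were picked for their leaf values, and in most of them the leaf groups did not overlap. Leaving out 1 library could then hardly turn the direction, so nothing is read from its being kept. Against 2 members called in *Mtsoc1a* leaves, DESeq2 called 8, the replicate block 10, transcripts as deposited 0, and fits without one library 0 to 3, with 0 without *Mtsoc1a* leaf replicate 3 or WT leaf replicate 3. Against 8 called in *Mtsoc1a* apices, DESeq2 called 30, transcripts as deposited 1, and fits without one library 1 to 38: 38 without WT apex replicate 2, 13 without *Mtsoc1a* apex replicate 1, and 1 without *Mtsoc1a* apex replicate 2, WT apex replicate 1 or WT apex replicate 3. Against 84 called in the triple mutant, fits without one library gave 63 to 85. Apex replicate numbers did not pair the samples (correlation -0.321 to 0.213 for the same number, -0.308 to 0.407 for different numbers), and the replicate block gave 6 members in *Mtsoc1a* apices and 78 in the triple mutant. For membership, bounds of 2 and 0.5 kept 55 of the 150 and mean CPM in place of TPM kept 66. On mean CPM, 80 members passed both folds, and 70 to 83 did without one library. Counts of members by the order of their groups, recomputed on mean CPM after the data were seen, are given with the results. Depth limits most the 43 members under 1 CPM in *Mtsoc1a* apices, and the triple mutant libraries, at 13224488 to 15891830 counts, were the shallowest.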
